A study of Mus musculus with 4 samples.

Results

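Major histocompatibility complex (MHC) class I transcripts were examined in mouse bone marrow-derived macrophages, through 10 genes taken from the table by Ensembl ID and symbol. They are the classical heavy chain genes H2-K1 and H2-D1, the class Ib genes H2-Q4, H2-Q6 and H2-Q7 of the Q region, the class Ib genes H2-T22 and H2-T23 of the T region, H2-M2 and H2-M3 of the H2-M region, and B2m. All 10 were found among 34745 genes, and all 10 passed the filter on low counts. The study compared 2 libraries transfected with Acly-E14 siRNA against 2 libraries transfected with control siRNA. All 4 came from primary C57BL/6 macrophages and had been given lipopolysaccharide (LPS), the bacterial cell wall component that activates macrophages, so the data hold no library without LPS or without transfection. Per the labels the cells were primary cultures, and the labels leave unsaid whether the libraries within each group had separate animals or cultures as their source.

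A class I molecule is a membrane-bound heavy chain paired with beta-2-microglobulin, the light chain encoded by B2m, around a peptide that is usually made in the cytosol. The classical heavy chains show such peptides to CD8+ T cells, and nearly every nucleated cell type carries them. The class Ib molecules are less variable between individuals and have narrower tasks. In the mouse, Qa-2 (from H2-Q7 and its neighbours) is held in the membrane by a lipid anchor, Qa-1 (H2-T23) presents leader peptides of other class I chains to receptors of natural killer cells, the H2-T22 product is recognised by some gamma-delta T cells, and H2-M3 binds peptides that start with N-formyl methionine. Interferons and NF-kB raise class I transcription through elements close to the start site, and NLRC5 is the class I transactivator.

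The sequences upstream of 5 members are shown because these elements can be read in them and because the members differ in which of them they hold. Each run is the 250 bases before the RefSeq start site, 5′ to 3′ on the gene's strand, in GRCm38.p6. Capitals mark matches to 6 motifs, searched on both strands, whose letters were chosen after the class I promoters had been read. The motifs were a pair of kB-like forms that can overlap (GGGNNTTCC, and a form 1 letter longer in which any letter stands between TT and CC), GTTTCACTT (the core of the interferon-stimulated response element, ISRE), TTTCNNTT (a looser form that every GTTTCACTT also matches), TGNTGAC (X2-like) and CCAAT. The windows are chr17:34000348-34000597 for H2-K1 (minus strand), chr17:36042743-36042992 for H2-T22 (minus), chr17:37269984-37270233 for H2-M3 (plus), chr17:37483555-37483804 for H2-M2 (minus) and chr2:122147437-122147686 for B2m (plus).
H2-K1: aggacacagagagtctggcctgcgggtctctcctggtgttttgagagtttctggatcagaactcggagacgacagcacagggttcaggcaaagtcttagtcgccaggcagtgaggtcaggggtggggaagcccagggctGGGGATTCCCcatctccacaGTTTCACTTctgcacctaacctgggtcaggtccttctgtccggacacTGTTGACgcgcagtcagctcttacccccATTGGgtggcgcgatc
H2-T22: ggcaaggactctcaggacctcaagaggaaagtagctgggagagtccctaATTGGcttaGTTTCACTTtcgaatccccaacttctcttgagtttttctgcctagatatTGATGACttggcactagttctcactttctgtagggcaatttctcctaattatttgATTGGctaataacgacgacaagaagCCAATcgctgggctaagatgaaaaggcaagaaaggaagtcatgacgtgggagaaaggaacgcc
H2-M3: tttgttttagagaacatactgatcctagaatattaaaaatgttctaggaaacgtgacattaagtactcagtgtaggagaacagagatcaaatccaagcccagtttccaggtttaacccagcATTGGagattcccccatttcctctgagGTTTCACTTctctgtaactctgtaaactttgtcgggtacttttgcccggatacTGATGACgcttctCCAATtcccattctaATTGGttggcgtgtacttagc
H2-M2: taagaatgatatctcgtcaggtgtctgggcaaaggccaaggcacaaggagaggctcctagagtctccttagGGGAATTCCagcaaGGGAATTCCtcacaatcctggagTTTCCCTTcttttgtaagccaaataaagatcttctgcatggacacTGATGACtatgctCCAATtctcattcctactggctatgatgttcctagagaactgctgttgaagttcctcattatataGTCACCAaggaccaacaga
B2m: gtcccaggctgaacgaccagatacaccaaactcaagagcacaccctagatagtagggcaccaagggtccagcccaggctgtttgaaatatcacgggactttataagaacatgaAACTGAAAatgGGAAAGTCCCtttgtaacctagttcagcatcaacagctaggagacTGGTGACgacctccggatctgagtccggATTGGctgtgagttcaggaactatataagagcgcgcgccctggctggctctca

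The exact ISRE core GTTTCACTT was found upstream of 7 of the 10 members, against 0.338% of 32851 RefSeq windows of the same length. The 7 were both classical genes, the 3 Q-region genes, H2-T22 and H2-M3. H2-M2, H2-T23 and B2m held only the looser form TTTCNNTT, which 21.3% of all windows also hold. A kB-like match was present upstream of H2-K1, H2-D1, H2-Q4, H2-Q6, H2-Q7, H2-M2 and B2m. GGGNNTTCC occurs in 4.98% and the longer form in 4.11% of all windows. In H2-M2 the 9-letter form occurred at 2 places, from -179 to -171 and from -165 to -157. An X2-like match was present in all 10 members, against 11.7% of windows, and a CCAAT match in all 10, against 33.8%. The only X2-like match of H2-T23 was on the opposite strand, from -19 to -13. The RefSeq start lay 154 bases from the GENCODE M21 gene start for H2-T23 and 364 bases from it for H2-D1. Their windows, and the matches found or missing in them, depend on that choice of start. The letters were chosen after these promoters had been read, and several heavy chain windows resemble each other. High member counts were thus built in, and setting them against all windows is not a test. A match is a string of letters and not a measured binding site, and a missing match says only that these letters are not in the window.

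**Figure D1:**
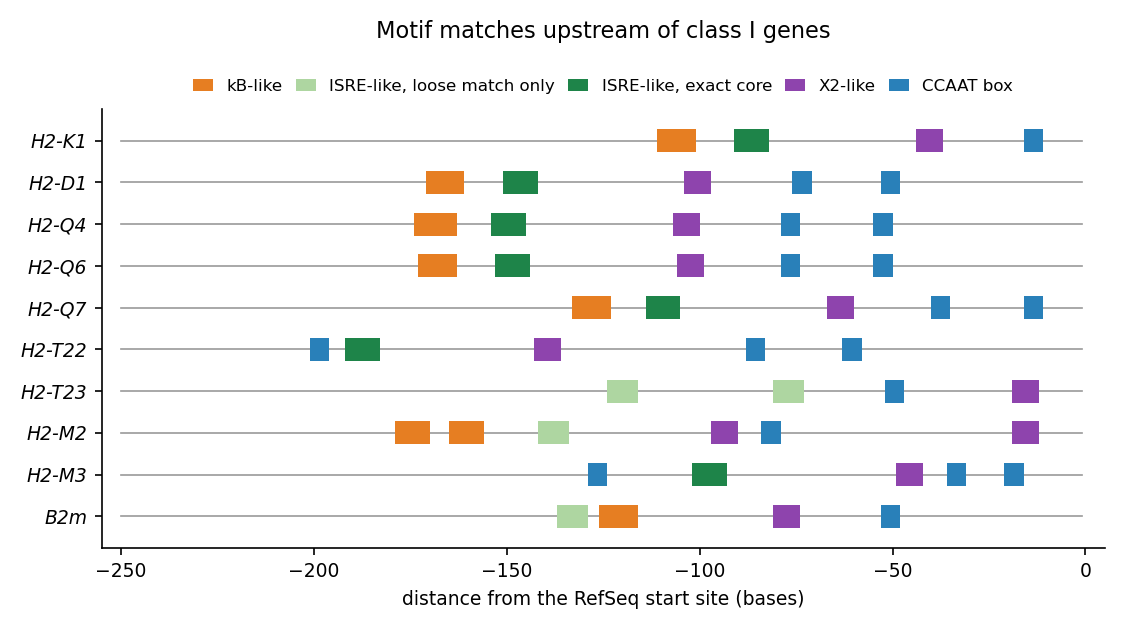
Motif matches in the 250 bases before the RefSeq start site of the 10 genes. The horizontal axis is the distance from the start site in bases and coloured blocks mark matches on either strand. Overlapping matches are drawn over each other, and both kB-like forms share a colour, so a block can hold several matches. The exact ISRE core is seen in 7 rows and the loose form alone in those of H2-T23, H2-M2 and B2m.

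The libraries held 21323438 and 21086129 counts in Acly-E14 siRNA cells, against 21023197 and 21837806 counts in control cells. The labels do not state what E14 in the siRNA name stands for, and the counts of Acly given here cover the whole gene. Acly, the gene named in that siRNA, had 118 and 127 CPM (counts scaled to library size with trimmed-mean factors) in Acly-E14 siRNA libraries, against 158 and 154 CPM in control libraries. Its log2 fold change was -0.35 (SE 0.060, edgeR adjusted p = 0.0086), and the adjusted p was 0.058 without control library 1. Counts of called markers here (edgeR adjusted p under 0.05) stand beside 15.9% lower and 17.3% higher over all 13108 genes tested. Of 14 tested macrophage markers 4 rose and 6 fell. Those of smallest p were Cd14 (log2 1.03) and Apoe (0.52), which rose, and Mrc1 (-0.63) and Cebpa (-1.18), which fell. Lyz2, named after its values were seen, was near 4602 CPM in Acly-E14 siRNA libraries and 4741 CPM in control libraries. The count of lower macrophage markers was 3 without Acly-E14 siRNA library 2 or control library 1, and 4 without control library 2, which also left 2 higher. Of 15 fibroblast and stroma markers 14 rose and 0 fell, at a median log2 fold change of 1.47. Their summed level was 3323 and 4116 CPM in Acly-E14 siRNA libraries, against 954 and 1454 CPM in control libraries, and no marker of that list was at 0. Defining lymphocyte genes were at or near 0: Cd3e, Cd8a and Ncr1 had no count, and the 10 T, B and NK cell markers summed to at most 1.17 CPM in a library. The 7 dendritic cell markers summed to at most 224 counts in a library, with Siglech at 0. Of 3 tested neutrophil markers 2 were higher and 1 lower, and the higher count was 1 without Acly-E14 siRNA library 2 or either control library. Of 3 tested endothelial markers 0 were higher and 2 lower, and the lower count was 1 without either Acly-E14 siRNA library or control library 1, and also with library totals, the replicate block, DESeq2, limma, B2m scaling or no filter. Since these are bulk cultures, fewer cells of a type and less RNA per cell cannot be told apart. The part of stromal cells in the class I results was not tested.

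Class I transcripts were abundant, and B2m and H2-D1 stood far above the other members. Per length, B2m had 6245 and 4961 FPKM, that is fragments per kilobase of transcript for a library scaled to a fixed number of reads, in Acly-E14 siRNA libraries, against 4537 and 5300 FPKM in control libraries. H2-D1 followed with 2263 and 2077 FPKM in Acly-E14 siRNA libraries, against 1985 and 2107 FPKM in control libraries. H2-K1 came next at 355 and 343 FPKM in Acly-E14 siRNA libraries, against 359 and 382 FPKM in control libraries. On this scale the groups overlapped for B2m and H2-D1, and for H2-K1 both treated values lay just below both controls.

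Below them, H2-Q4 and H2-Q6 lay close together, at 212 to 225 and 207 to 218 FPKM in Acly-E14 siRNA libraries, and at 239 to 243 and 236 to 238 FPKM in control libraries. H2-T22 had 135 and 136 FPKM in Acly-E14 siRNA libraries, against 156 and 168 FPKM in control libraries. H2-M2 was at 31.8 and 30.8 FPKM in Acly-E14 siRNA libraries, against 133 and 132 FPKM in control libraries, so it stood beside H2-T23 (137 and 137 FPKM) in control cells and lowest of the 10 in Acly-E14 siRNA cells. H2-M3 and H2-Q7 were low in both groups, the first at 66.4 to 68.8 FPKM in Acly-E14 siRNA libraries and 78.6 to 79.9 FPKM in control libraries. H2-Q7 was at 41.6 to 45.5 FPKM in Acly-E14 siRNA libraries and 47.7 to 48.6 FPKM in control libraries.

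This order rests partly on gene length. Dividing counts by FPKM gave back the merged exons of GENCODE M21 for 2 of the 10 members, H2-M3 and B2m. For 3 members the length so obtained exceeded the whole gene: 7271 bases for H2-K1, whose gene spans 4331, 7392 for H2-Q7 (4619) and 6451 for H2-T23 (3083). Per kilobase of merged exons, H2-K1 reached 878 and 849 in Acly-E14 siRNA libraries, against 887 and 944 in control libraries. The first 4 places (B2m, H2-D1, H2-K1, H2-Q4) were the same with both lengths. H2-T23 moved from the seventh place to the fifth, above H2-Q6 and H2-T22, whose control ranges overlapped there, and H2-M3 to the last when all 4 libraries were averaged. H2-M2 stayed the lowest of the 10 in Acly-E14 siRNA cells with either length, at 47.2 and 45.7 per kilobase of merged exons there and at 197 and 196 in control cells.

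**Figure D2:**
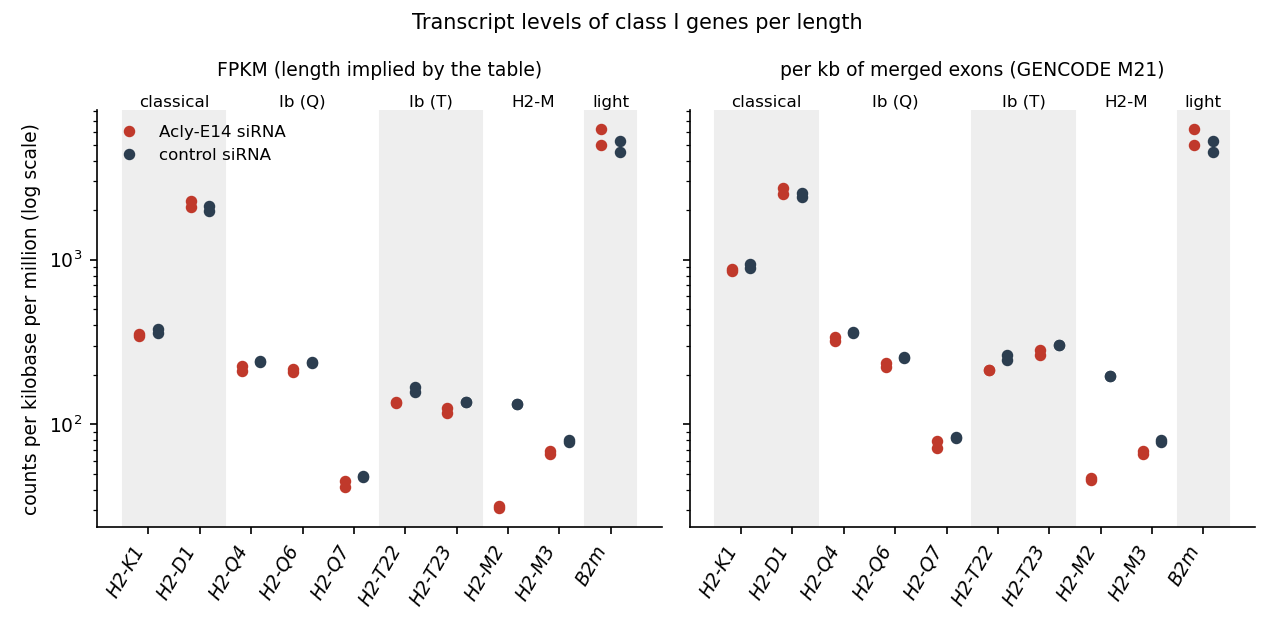
Level per length of each class I gene in each library, on a log axis. The left panel uses the length implied by the deposited FPKM and the right panel the merged exons of GENCODE M21; red points (left of each pair) are the 2 Acly-E14 siRNA libraries and dark points the 2 control libraries, and only H2-M2 shows a wide gap between them.

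Between the groups, 7 of the 10 members fell and 0 rose in Acly-E14 siRNA libraries (edgeR adjusted p under 0.05). Over all 13108 genes tested 33.2% were called, 15.9% lower and 17.3% higher. Among the 2714 genes with a mean log2 (CPM + 1) of at least 6, a limit set after the values were seen and passed by every member, 37.1% were called lower and 16.2% higher. Both Acly-E14 siRNA libraries lay below both control libraries for 8 members, against 35.3% of all genes, and the groups overlapped for H2-D1 and B2m, while 70.6% of all genes had groups that did not overlap in either direction. The median log2 fold change of the 10 members was -0.24, against 0.00 over all genes and -0.13 over the 2714 highly counted ones. Only H2-M2 was called with a fall of more than 1 on the log2 scale, as were 1.67% of all genes. In either direction 9.16% of all genes were called beyond that size. Apart from H2-M2 the called falls were small, between -0.35 and -0.24 on the log2 scale. Scaling to library totals alone left 3 of the 7 calls, those of H2-T22, H2-M2 and H2-M3. With that scaling 65.8% of all calls were rises, against 52.0% with trimmed-mean factors.

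**Figure D3:**
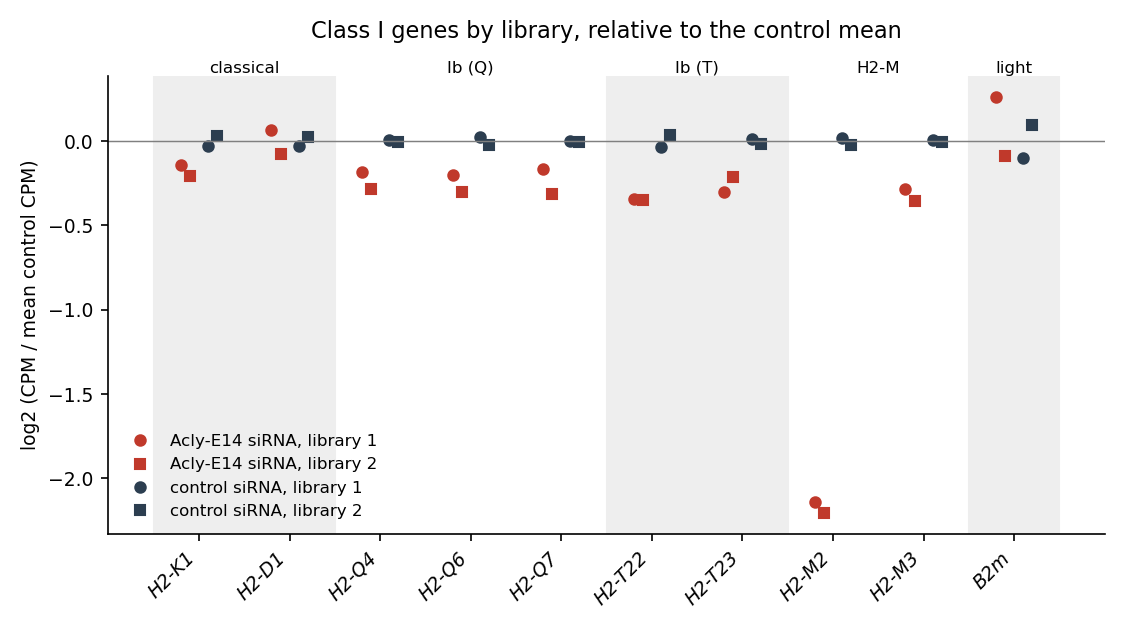
CPM of each class I gene in each library relative to its control mean, as log2 ratios. Red symbols are Acly-E14 siRNA libraries and dark symbols control libraries, circles library 1 and squares library 2; H2-M2 lies beyond -2, the Q, T and H2-M3 genes lie just below their controls, and H2-D1 and B2m overlap with theirs.

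The classical heavy chains showed no called change. H2-K1 had 2517 and 2404 CPM in Acly-E14 siRNA libraries, against 2722 and 2834 CPM in control libraries. Both treated values lay below both controls, by a log2 fold change of -0.18 (SE 0.060, edgeR adjusted p = 0.071). H2-D1 had 6860 and 6216 CPM in Acly-E14 siRNA libraries, against 6441 and 6688 CPM in control libraries. Here the treated libraries lay on either side of the controls, with a log2 fold change of -0.01 (SE 0.074, edgeR adjusted p = 0.96). The sign of the H2-D1 value turned with library totals (0.085), without Acly-E14 siRNA library 2 (0.063) and without control library 2 (0.020). The ratio of H2-D1 to H2-K1 counts does not depend on scaling. It was 2.73 and 2.59 in Acly-E14 siRNA libraries, against 2.37 and 2.36 in control libraries, 1.12-fold higher, with an exact two-sided permutation p of 0.333 (n = 2 per group), the smallest that 2 against 2 can give.

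The light chain did not show a called change either. B2m had 5240 and 4109 CPM in Acly-E14 siRNA libraries, against 4075 and 4655 CPM in control libraries. The highest value was that of Acly-E14 siRNA library 1, and the other treated library lay between the controls. Its log2 fold change was 0.10 (SE 0.13, edgeR adjusted p = 0.60), and -0.085 without Acly-E14 siRNA library 1. The SE of B2m was the highest among the members, although it had at least 82027 counts in every library.

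The 3 Q-region genes fell by nearly the same amount. H2-Q4 had 856 and 798 CPM in Acly-E14 siRNA libraries, against 977 and 970 CPM in control libraries (log2 -0.24, SE 0.058, edgeR adjusted p = 0.028). H2-Q6 had 477 and 446 CPM in Acly-E14 siRNA libraries, against 559 and 541 CPM in control libraries (log2 -0.25, SE 0.058, adjusted p = 0.023). H2-Q7 had 328 and 296 CPM in Acly-E14 siRNA libraries, against 368 and 367 CPM in control libraries (log2 -0.24, SE 0.065, adjusted p = 0.039). In all 3 the groups were apart, and Acly-E14 siRNA library 2 was the lowest of the 4 libraries. These calls did not hold without Acly-E14 siRNA library 2 (adjusted p of 0.14 for H2-Q4, 0.11 for H2-Q6 and 0.17 for H2-Q7), without control library 1 (0.12, 0.12 and 0.15) or without control library 2 (0.098, 0.071 and 0.13). Without either control library the log2 fold changes stayed between -0.28 and -0.23, and without Acly-E14 siRNA library 2 they were -0.19, -0.20 and -0.16. The H2-Q6 to H2-Q7 count ratio was 1.46 and 1.51 in Acly-E14 siRNA libraries, against 1.52 and 1.48 in control libraries, so the groups overlapped.

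Both T-region genes fell. H2-T22 had 711 and 707 CPM in Acly-E14 siRNA libraries, against 878 and 925 CPM in control libraries. Its log2 fold change of -0.35 (SE 0.055, edgeR adjusted p = 0.0070) stayed called whichever library was left out (adjusted p between 0.031 and 0.041). H2-T23 had 739 and 784 CPM in Acly-E14 siRNA libraries, against 920 and 901 CPM in control libraries (log2 -0.26, SE 0.057, edgeR adjusted p = 0.019). The groups of both genes were apart. The H2-T23 call did not hold without Acly-E14 siRNA library 1 (adjusted p = 0.093), control library 1 (0.103) or control library 2 (0.069).

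The pair of H2-M genes differed from each other in size. H2-M2 fell to 71.4 and 68.2 CPM in Acly-E14 siRNA libraries, against 319 and 310 CPM in control libraries, with counts of 1560 and 1494 against 6430 and 6633. Both groups were tight and far apart. The level was 0.222 of the control level (log2 -2.17, SE 0.057, edgeR adjusted p = 0.00013), and 50 of the 13108 tested genes had a lower log2 fold change. Its call held in all 13 alternatives that gave a new fit, with log2 values from -2.26 to -2.05 and adjusted p of at most 0.010. H2-M3 had 96.5 and 91.9 CPM in Acly-E14 siRNA libraries, against 118 and 117 CPM in control libraries (log2 -0.32, SE 0.057, edgeR adjusted p = 0.0098). That call missed the threshold when control library 1 (adjusted p = 0.058) or Acly-E14 siRNA library 2 (0.064) was left out.

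The ratio of H2-M2 to H2-M3 counts was 0.740 and 0.742 in Acly-E14 siRNA libraries, against 2.71 and 2.64 in control libraries. H2-M2 was the higher of the pair in control cells and the lower in Acly-E14 siRNA cells (exact two-sided permutation p = 0.333, n = 2 per group, the smallest possible). Of the 9 heavy chains' counts together, H2-M2 took 0.564% and 0.578% in Acly-E14 siRNA libraries, against 2.40% and 2.27% in control libraries. H2-D1 took 54.2% and 52.6% of them in Acly-E14 siRNA libraries, against 48.4% and 49.0% in control libraries. The remaining heavy chains held lower mean shares in Acly-E14 siRNA libraries, and for H2-T23 the groups overlapped.

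**Figure D4:**
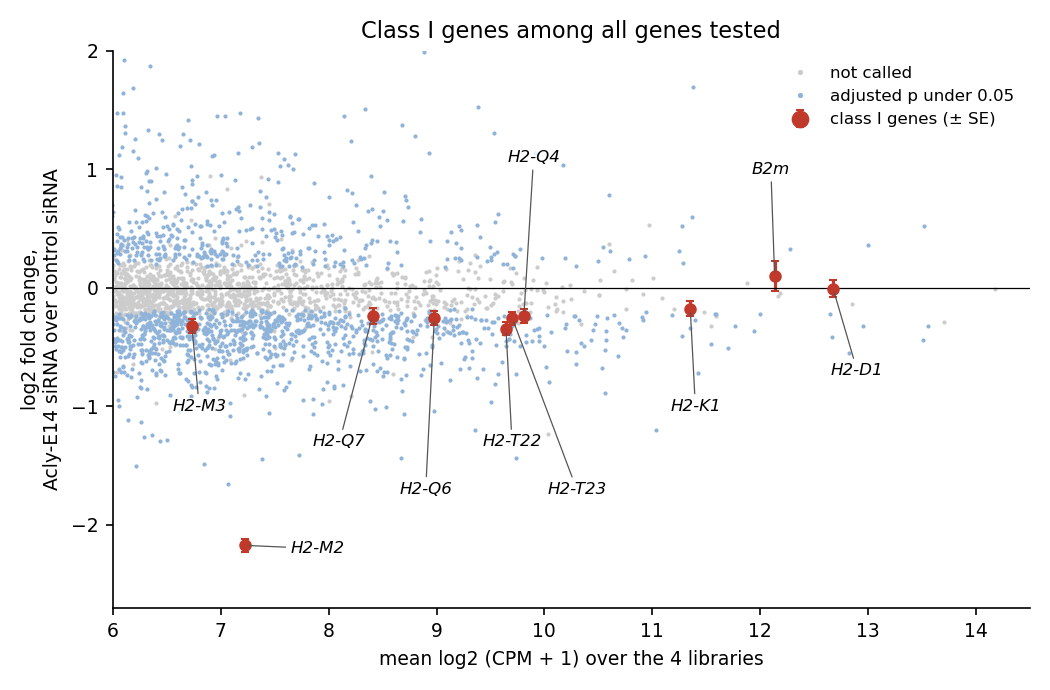
Log2 fold change (Acly-E14 siRNA over control siRNA) against mean log2 (CPM + 1) for 2707 genes with a mean of at least 6 and a fold change inside the plotted range, of 13108 tested. Class I genes are red with their SE; H2-M2 lies at -2.17, below nearly all genes of its level, and the other 9 lie between -0.35 and 0.10.

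Because class I genes resemble each other, the classes were also summed before the fit. The classical pair summed to 9377 and 8619 CPM in Acly-E14 siRNA libraries, against 9163 and 9521 CPM in control libraries (log2 -0.05, SE 0.073, edgeR adjusted p = 0.61). The 5 class Ib genes of the Q and T regions summed to 3111 and 3031 CPM in Acly-E14 siRNA libraries, against 3701 and 3703 CPM in control libraries (log2 -0.27, SE 0.056, edgeR adjusted p = 0.016). The class Ib groups were apart, and each fit with 1 library left out missed the threshold (adjusted p of 0.058 to 0.091). The H2-M pair summed to 168 and 160 CPM in Acly-E14 siRNA libraries, against 437 and 428 CPM in control libraries (log2 -1.40, SE 0.055, edgeR adjusted p = 0.00059). All 9 heavy chains together had 12656 and 11810 CPM in Acly-E14 siRNA libraries, against 13302 and 13652 CPM in control libraries (log2 -0.14, SE 0.071, edgeR adjusted p = 0.18). The difference between classes was not tested.

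Set against the light chain, there were 2415 and 2874 heavy chain counts per 1000 B2m counts in Acly-E14 siRNA libraries, against 3265 and 2932 in control libraries. The groups did not overlap, but the values of Acly-E14 siRNA library 2 and control library 2 were close (exact two-sided permutation p = 0.333, n = 2 per group, the smallest possible). For H2-M2 the ratio was 13.6 and 16.6 in Acly-E14 siRNA libraries, against 78.4 and 66.6 in control libraries. When libraries were scaled to their B2m count, H2-M2 was the only member called (log2 -2.26), and the adjusted p of the other 8 heavy chains lay between 0.38 and 0.89. The falls were not smaller with that scaling (H2-T22 -0.43, H2-M3 -0.41 and H2-Q4 -0.33 on the log2 scale), but their SE was about 0.27 to 0.28.

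The sequence that members share limits how well their counts can be separated. H2-Q6 had 32.0% and H2-Q7 26.4% of its 50-base transcript windows in common with some other gene, and H2-T22 had 34.5%, of which most (31.25% of its windows) were shared with H2-T10. For H2-K1 the share was 9.63%, for H2-D1 12.8%, for H2-Q4 21.8% and for H2-T23 13.6%. H2-M2 shared 1.61%, H2-M3 0.576% and B2m none. With windows of 100 bases the shares were at most 12.0%, and none was shared by H2-M2, H2-M3 or B2m. The read length and the treatment of reads with several matches could not be read from the labels. H2-Q4 also shares 496 exon bases with the antisense gene Gm11131, and H2-T22 shares 1003 with A930015D03Rik.

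On chromosome 17 of mm10, H2-K1 lies at 33996017 to 34000347, H2-D1 at 35262730 to 35267499, H2-T22 at 36037128 to 36042747, H2-M3 at 37270220 to 37274484 and H2-M2 at 37480851 to 37483552, on the minus strand. B2m lies on chromosome 2 at 122147686 to 122153083. Within 200 kb of H2-M2 the table lists 25 other genes, a window set after its fall was seen, and 22 of them had no count in any library. The 2 with more than 1 count were olfactory receptor genes. Olfr110 had 27 and 30 counts in Acly-E14 siRNA libraries, against 23 and 28 in control libraries, and Olfr111 had 161 and 146 against 190 and 180 (edgeR adjusted p of 0.84 and 0.11). Neither was called, with log2 fold changes of 0.09 for Olfr110 and -0.35 for Olfr111.

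By the distance between centred log2 (CPM + 1) values over the 4 libraries, among 12203 genes, the 3 genes nearest H2-M2 were Fbxo32, a ubiquitin ligase gene, Cxcr4, a chemokine receptor gene, and Il23a, the p19 subunit gene of interleukin-23 (distances 0.154, 0.179 and 0.249). Their log2 fold changes were -2.10, -2.28 and -2.40. The 3 nearest B2m were Fap, Kansl1l and Kdm4b (distances 0.028, 0.029 and 0.041), none of them called, and each, like B2m, was highest in Acly-E14 siRNA library 1. Fap had only 1.46 and 0.96 CPM in Acly-E14 siRNA libraries, against 0.94 and 1.17 CPM in control libraries. At such levels the added 1 shrinks log2 differences, so its small distance says little. With 4 libraries in 2 groups a small distance mainly describes the size of the difference between the groups.

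Other class I loci of the H2 complex gave 4 tested genes of 19 in the table, and 3 of these fell, with a median of -0.33 on the log2 scale. Counts of called genes in this list and in those that follow stand beside 15.9% lower and 17.3% higher over all genes tested. H2-T24 had a log2 fold change of -0.39 (SE 0.067, edgeR adjusted p = 0.0092), H2-T10 of -0.38 and H2-Q5 of -0.28, and the value for H2-T-ps was -0.08 (adjusted p = 0.53). None of these calls held without control library 1. A further 10 loci, among them H2-T3, H2-M9 and the H2-M10 genes, had no count in any library, and 5 had 1 to 20 counts over the 4 libraries.

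Class I-like molecules outside the H2 complex showed called changes only upward. Of 10 tested 3 rose and 0 fell, at a median of 0.25. Procr, the endothelial protein C receptor gene, had 248 ± 18.5 CPM in Acly-E14 siRNA libraries and 106 ± 6.75 CPM in control libraries (SD, n = 2 each). Fcgrt, whose product carries IgG and pairs with beta-2-microglobulin, had a log2 fold change of 1.11 (edgeR adjusted p = 0.0034), and Mr1, which presents vitamin B metabolites, of 0.67 (0.025). The NKG2D ligand gene Raet1d had a log2 value of 0.31 (0.17). The count of higher genes was 2 without either Acly-E14 siRNA library or control library 1. The fibroblast and stroma list, given above, had a median of 1.47, and its part here was not tested.

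The genes that load class I molecules moved both ways. Of 8 tested, 5 fell and 2 rose, at a median log2 fold change of -0.23, while 37.1% of the 2714 highly counted genes were called lower and 16.2% higher. Erap1, which trims peptides in the endoplasmic reticulum, had a log2 fold change of -0.50 (SE 0.056, edgeR adjusted p = 0.0027) and Tapbp, which encodes tapasin, of -0.25 (0.022). The chaperone genes Canx and Pdia3 rose, by 0.54 and 0.56 on the log2 scale. The count of lower genes was 1 without either Acly-E14 siRNA library or control library 1, and 3 without control library 2. Of 7 immunoproteasome and PA28 genes, 2 were lower, Psmb10 (log2 -0.34) and Psme1 (-0.26), and 0 higher, while 37.1% of the 2714 highly counted genes were called lower. Psmb8 and Psmb9, 2 of the inducible catalytic subunits, had values of -0.16 and -0.20 (edgeR adjusted p of 0.074 for each). The count of lower genes in this list was 0 without Acly-E14 siRNA library 2 or control library 1, and 1 without either of the others.

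Of 18 genes for regulators of class I transcription, 6 fell and 0 rose, at a median log2 fold change of -0.24. Of all genes tested 15.9% were called lower, and of the 2714 highly counted ones 37.1%. Irf9, Irf8 and Irf2 had log2 fold changes of -0.54, -0.41 and -0.42 (edgeR adjusted p of 0.0026, 0.013 and 0.014). Nlrc5, named here after its values were seen because it is the class I transactivator, had 441 ± 26.8 CPM in Acly-E14 siRNA libraries and 526 ± 16.02 CPM in control libraries (SD, n = 2 each), a log2 fold change of -0.26 (edgeR adjusted p = 0.028). Rela, the p65 subunit of NF-kB and also named after its values were seen, had a log2 value of 0.00 (0.97). The count of lower regulators was 1 without Acly-E14 siRNA library 2 or control library 1, and 3 without control library 2.

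Interferon signalling genes upstream moved both ways. Of 7 receptor chains and Janus kinases, Tyk2 (log2 -0.56, edgeR adjusted p = 0.0024) and Jak1 (-0.25, 0.018) were lower and Ifnar1, a chain of the type I interferon receptor, was higher (0.23, 0.024). Without any 1 of the 4 libraries, 1 gene of this list was lower and 0 higher. Among 25 type I interferon response genes, 18 fell and 1 rose, at a median log2 fold change of -0.33. Of the 2714 highly counted genes, 37.1% were called lower and 16.2% higher. Dhx58, Rtp4, Ifit2 and Ifit1 had log2 fold changes of -0.59, -0.48, -0.55 and -0.48. The count of lower genes was 11 without Acly-E14 siRNA library 2, 9 without control library 1 and 11 without control library 2. The macrophage list had a median of -0.12, and its part in these falls was not tested.

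**Figure D5:**
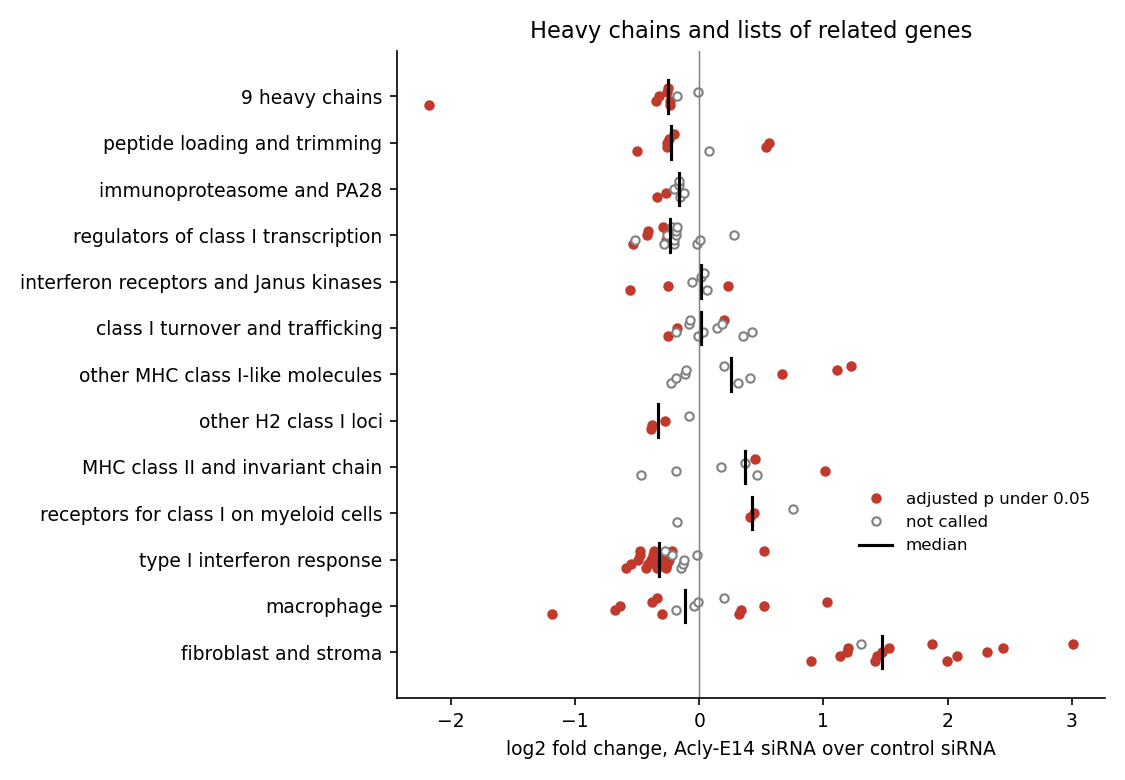
Log2 fold change of each tested gene in the lists, with the 9 heavy chains on top. Each point is 1 gene, filled where the edgeR adjusted p was under 0.05, and the bar is the list's median; the heavy chains other than H2-M2, the other H2 loci and the interferon response genes lie mostly just left of 0, and the stroma markers to the right.

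Genes for receptors of class I molecules on myeloid cells went the other way. Of 4 tested, Pirb, an inhibitory receptor that binds class I molecules, rose (log2 0.41, SE 0.050, edgeR adjusted p = 0.0034) and so did its activating relative Pira2 (0.45, 0.015), while Lilra5 and Lilra6 had group means below 1 CPM and were not called. The count of higher receptors was 1 without Acly-E14 siRNA library 2 or either control library. Of 7 MHC class II genes, 2 were higher and 0 lower. H2-DMa had a log2 fold change of 1.01 (edgeR adjusted p = 0.017) and H2-Ab1 of 0.45 (0.020), at 7.86 and 15.6 CPM in Acly-E14 siRNA libraries and 3.88 and 11.5 CPM in control libraries. The class II count was 0 without Acly-E14 siRNA library 1 or control library 1, and 1 without either of the others. Of 12 genes of class I turnover and trafficking, 2 were lower, Derl1 (-0.25) and Bcap31 (-0.18). The count of lower genes there was 1 without Acly-E14 siRNA library 1, and 0 when any other library was left out.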

How the data were processed

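RNA-seq of 4 libraries was read from a deposited table that gives, per gene, the authors' raw counts and FPKM values. HISAT2, StringTie 1.3.0, edgeR and the mm10 build are named, without roles, per the submitters' processing notes. For the annotation, strand setting and read length, nothing is stated in the labels. They name both a stranded total RNA kit and a messenger RNA capture kit.

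The test was the quasi-likelihood F test of edgeR 4.0.16 under R 4.3.3 (trimmed-mean scaling, filterByExpr with a minimum count of 10), with Benjamini-Hochberg adjustment over 13108 genes and a threshold of 0.05. The SE is the size of the log2 fold change divided by the square root of F. Summed classes were added as rows and fitted the same way. Alternatives used DESeq2 1.42.0, limma 3.58.1 on log2 (FPKM + 1) and log2 (FPKM + 0.1), other scalings, other filters, a replicate block and each library left out. The code was tested on simulated data.

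1 FPKM column carries a group name and no replicate number and was not used. Every library was put on the FPKM scale from its own counts and the median gene lengths implied by the other 3 columns. Ratios were compared with exact permutation tests, whose smallest p is 0.333. Replicate libraries of a group differed by more than sampling noise, with chi-square per degree of freedom of 11.0 in Acly-E14 siRNA and 9.52 in control libraries. Since the origin of the replicates is not stated, p-values measure the spread between these libraries, which may be technical. Annotation and transcripts came from GENCODE M21 and upstream sequences from RefSeq (GRCm38.p6). In each list up to 4 genes, those with the lowest p, were named, along with those stated as chosen later. Some genes that this rule names are not reported here. The members and lists were chosen with earlier results of these data known.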

Additional observations from a re-analysis of the deposited data

How the results depend on the processing

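H2-M2 stayed called under every alternative run. The labels do not say whether replicate numbers pair the libraries; the correlation of same-numbered deviations was 0.191, and 2 pairs are too few to settle it. With the replicate block 4896 genes were called, 8 members were lower (H2-K1 at adjusted p = 0.024) and the 9 heavy chains summed gave -0.14 (0.042). Leaving out 1 library gave 1045 to 1815 higher and 982 to 1400 lower genes, 2 to 6 lower members, and log2 ranges of -0.29 to -0.25 for class Ib, -0.11 to 0.0049 for the classical pair, -0.19 to -0.09 for the 9 heavy chains and -1.43 to -1.37 for H2-M. The sign turned without Acly-E14 siRNA library 1 for B2m (-0.085; range -0.085 to 0.26 over the 4 libraries), without Acly-E14 siRNA library 2 for H2-D1 (0.063; range -0.076 to 0.063) and without control library 2 for H2-D1 (0.020). Library totals turned H2-D1 (0.085) and the classical pair (0.037) and left 3 lower members; limma turned H2-D1 (0.084 with either pseudocount), with 1389 (+ 1) and 1383 (+ 0.1) lower genes and 3 lower members in each. Rises were 65.8% of calls with library totals and with limma, and 69.0% with B2m scaling, against 52.0%. B2m scaling gave 1037 higher and 466 lower genes, 1 lower member and -0.36 for class Ib (0.484). A log2 fold change beyond 1 left 982 higher and 219 lower genes and 1 lower member, and class Ib (-0.27) missed it. Summed classes were not run with limma. The causes were not tested.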
